A study of Mus with 2 samples.

Results

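The 8 genes described here encode proteins of the podocyte slit diaphragm and foot process: Nphs1, Podxl, Synpo, Ptpro, Cd2ap, Magi2, Actn4 and Clic5. They were chosen by symbol, and all 8 were found among the 28693 features counted in the deposited matrices. Their levels were followed from early nephron cells through immature and mature podocytes and across the other cell types of the newborn mouse kidney.

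Podocytes are the epithelial cells that wrap the glomerular capillaries. Their interdigitating foot processes are joined by the slit diaphragm, a cell junction that forms part of the filtration barrier, and are held in shape by an actin cytoskeleton. Nephrin (Nphs1) spans the slit and is tied to actin by adaptors and scaffolds such as Cd2ap and Magi2. The apical surface of the foot process carries the sialomucin podocalyxin (Podxl) and the receptor phosphatase Ptpro, and synaptopodin (Synpo) and alpha-actinin-4 (Actn4) bind or crosslink the actin below. Podocytes arise from the nephron progenitors through an early nephron stage, and the junction is remodelled as they mature.

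Single-cell RNA libraries were made from the 3′ ends of transcripts on the 10x Chromium platform, from kidneys of mice at P0 (postnatal day 0). Both libraries analysed came from mutants of the genotype Rbpj c/- ; Foxd1cre/+, in which Foxd1Cre deletes the floxed Rbpj allele in the renal interstitium. Rbpj encodes the DNA-binding protein of the Notch pathway. The design text counts 4 libraries, and the 2 control libraries (Rbpj c/+ ; Foxd1cre/+) were not analysed here. All results therefore compare cell types within mutant kidneys, and none measures the effect of the mutation. The labels do not say how many animals each library holds or whether the libraries came from separate animals. The p-values therefore cannot be read as measuring the spread between animals. They measure how unevenly the types shifted between these 2 libraries. A shift shared by all types is taken out, and the spread is estimated over all types together.

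Barcodes with at least 2000 unique molecular identifiers (UMIs) and at most 10% mitochondrial UMIs numbered 6220 in replicate 1 and 5149 in replicate 2. Their median depths were 11987.5 and 12307 UMIs, and 6 barcode sequences occurred in both libraries. The targeted gene, Rbpj, stood at 28.3 and 27.1 CPM (UMIs of the gene per 1000000 UMIs of a cell type in a library) in stroma and at 55.9 and 63.7 CPM in mature podocytes. Counts from 3′ ends do not show whether a transcript lacks an internal exon, and the labels do not name the deleted exons, so these values do not check the deletion. Cell types were gated on sums of marker genes, none of which is among the 8 genes. The types are "-like" types that rest on markers alone, and the ending is left out below.

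The podocyte gate took 822 barcodes. A stage score, the mature markers (among them Sema3g, Enpep, Col4a3, Col4a4 and Rhpn1) minus the immature markers (Pax8, Lhx1, Pax2), divided them. Mature podocytes numbered 323 in replicate 1 and 218 in replicate 2. Immature podocytes numbered 76 and 70, and 75 and 60 barcodes lay between. The score is a range and not a set of separate types: 47 podocytes lay within 0.25 of the lower limit and 110 within 0.25 of the upper one. The 8 podocyte lineage markers summed to 10386 and 10844 CPM in mature podocytes, to 5774 and 6450 CPM in immature podocytes and to between 27.6 and 551 CPM in the 11 types outside the lineage. The class I histocompatibility genes H2-Q7 and H2-Q6 were among the 10 leading genes of mature podocytes. Depth differed between the stages, with a median of 7144 and 7484 UMIs in mature and 18229 and 18092 UMIs in immature podocytes. Each comparison was therefore repeated on cells thinned to one depth.

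All 8 genes were highest in mature podocytes, lower in those between the stages and lower again in immature podocytes, in each library. Nphs1 stood at 2538 CPM in replicate 1 and 2230 CPM in replicate 2 in mature podocytes, against 434 and 374 CPM in immature podocytes and 11.5 and 8.36 CPM in early nephron cells. The stages did not overlap. Magi2, a PDZ-domain scaffold that binds nephrin, stood at 1323 and 1408 CPM in mature podocytes, 255 and 269 CPM in immature podocytes and 14.8 and 14.6 CPM in early nephron cells. Cd2ap is the adaptor between nephrin and actin. Its levels were 854 and 902 CPM in mature podocytes, 456 and 438 CPM in immature podocytes and 179 and 179 CPM in early nephron cells. Cd2ap was thus well detected before the podocyte stages, and both stages stood above that level.

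Among the apical genes, Podxl stood at 3439 and 3630 CPM in mature podocytes, 852 and 974 CPM in immature podocytes and 6.04 and 5.99 CPM in early nephron cells. Ptpro, a receptor tyrosine phosphatase of the foot process surface, stood at 645 and 871 CPM in mature podocytes, 254 and 359 CPM in immature podocytes and 1.59 and 0.975 CPM in early nephron cells. It was higher in replicate 2 at both podocyte stages, by more than counting error, while mature and immature podocytes did not overlap. The podocytes between the stages stood at 607 and 696 CPM and overlapped the mature ones. Clic5, a chloride intracellular channel family protein found with podocalyxin and ezrin at the apical membrane, stood at 1407 and 1351 CPM in mature podocytes. In immature podocytes Clic5 was at 214 and 199 CPM, and in early nephron cells at 8.13 and 8.01 CPM. The libraries differed little for this gene at any stage.

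The actin-binding genes differed in how far they reached outside the lineage. Synpo stood at 671 and 773 CPM in mature podocytes, 196 and 198 CPM in immature podocytes and 2.42 and 2.65 CPM in early nephron cells. Actn4 stood at 630 and 639 CPM in mature podocytes, 310 and 340 CPM in immature podocytes and 114 and 105 CPM in early nephron cells. Actn4 is expressed in many cell types, and its early nephron level was close to that in near-empty barcodes (10 to 100 UMIs, which hold free RNA), at 113 and 121 CPM. For the genes other than Cd2ap and Actn4, early nephron levels lay below those of the near-empty barcodes, so expression in early nephron cells cannot be told from free RNA there. UMIs of 3′ ends are not scaled to transcript length, and levels are compared within a gene only.

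**Figure D1:**
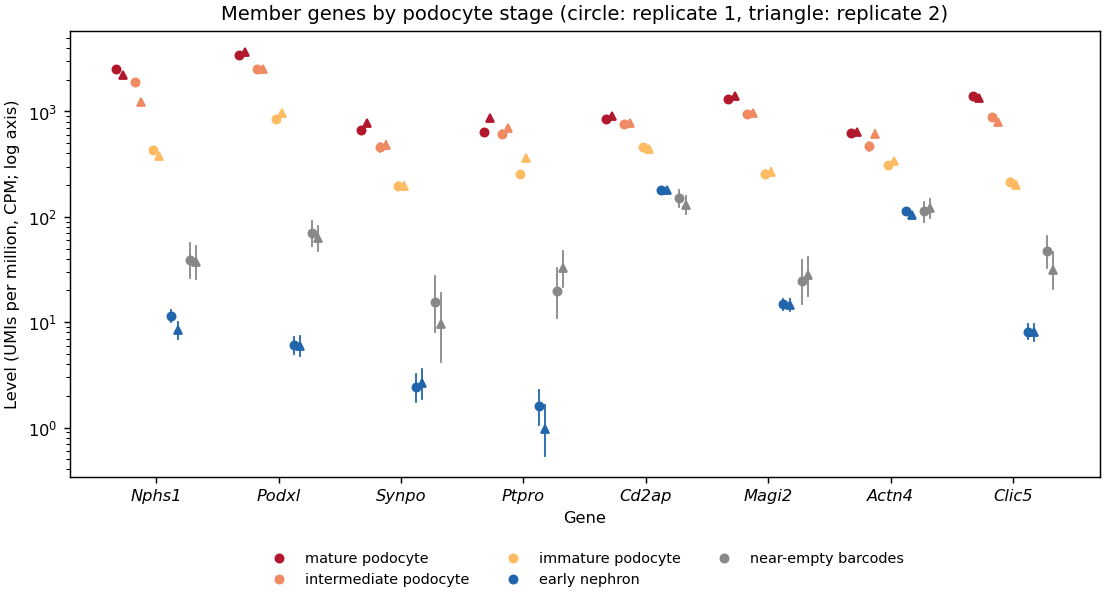
Level of each gene in CPM on a log axis, by podocyte stage, in early nephron cells and in near-empty barcodes; circles are replicate 1, triangles replicate 2, and bars are exact Poisson 95% intervals, which cover counting error only. Every gene stands highest in mature podocytes in both libraries, and Cd2ap and Actn4 span the narrowest range between early nephron cells and mature podocytes.

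The first comparison asked which of the genes differ between the podocyte stages. UMIs were summed per library and type and tested over 14252 genes by edgeR's quasi-likelihood test. P-values carry the Benjamini-Hochberg adjustment. All 8 genes were higher in mature podocytes, where 17.2% of all genes tested were higher and 36.6% were called in either direction. The median log2 fold change was 2.0 over the 8 genes and -0.04 over all genes tested. Clic5 differed by 2.82 ± 0.13 (log2 fold change ± SE), a 7.07-fold difference, with 2.79 in replicate 1 and 2.80 in replicate 2. Nphs1 differed by 2.64 ± 0.10, or 6.25-fold, and Magi2 by 2.46 ± 0.09, or 5.52-fold. These encode an apical protein, the junction protein and a scaffold, while the other apical and adaptor genes had smaller fold changes. Podxl followed at 2.04 ± 0.10 and Synpo at 1.95 ± 0.12. Ptpro differed by 1.39 ± 0.13 with an adjusted p of 2.6e-09 by edgeR's quasi-likelihood test. The last 2 genes, Cd2ap at 1.06 ± 0.09 (adjusted p = 6.7e-10, edgeR) and Actn4 at 1.05 ± 0.11 (adjusted p = 1.3e-08, edgeR), had 2.08-fold and 2.07-fold higher levels. Whether these fold changes differ from gene to gene was not tested.

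Set against mature podocytes, the level in immature podocytes was 15% for Clic5, 17.0% for Nphs1, 19.2% for Magi2, 25.8% for Podxl, 27.3% for Synpo, 40.4% for Ptpro, 50.9% for Cd2ap and 51.3% for Actn4. All 8 genes stayed higher in mature podocytes under each of 15 alternative settings. The size moved with the gates: where podocytes were divided at a score of 0 with no group between, Clic5 differed by 1.89 and Nphs1 by 1.78, and with a mitochondrial limit of 5% Ptpro differed by 0.81. Markers of other cell types differed between the stages too. The 6 mural markers summed to 402 and 489 CPM in immature and 161 and 158 CPM in mature podocytes. The 6 stroma markers summed to 615 and 705 CPM in immature and 470 and 439 CPM in mature podocytes, most of it Col1a2. In the podocytes between the stages the mural markers summed to 286 and 1034 CPM and the stroma markers to 974 and 1411 CPM. The stroma sum was thus highest there in both libraries, and the mural sum in replicate 2. The 7 early nephron markers, of which Lhx1 and Pax8 also entered the stage score, summed to 549 and 526 CPM in immature and 54.8 and 51.1 CPM in mature podocytes. The 6 nephron progenitor markers summed to 135 and 108 CPM in immature and 46.4 and 39.4 CPM in mature podocytes. The 5 erythroid markers had no shared direction, with 96.7 and 277 CPM in immature and 989 and 248 CPM in mature podocytes. Each of the other 6 lists summed to at most 67.2 CPM at either stage. The part of these markers in the result was not tested.

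Levels were also followed along the stage score. When podocytes were divided into 5 equal bins of the score, Podxl stood at 959 CPM in the first and 3972 CPM in the last bin of replicate 1, and at 1184 and 4195 CPM in replicate 2. It was higher in each bin than in the one before, in both libraries, as were Synpo, Magi2 and Clic5. Ptpro and Cd2ap had that order in replicate 2, but in replicate 1 they stood at 618 and 800 CPM in the second bin and at 582 and 794 CPM in the third. Nphs1 was higher in each bin than in the one before in replicate 1, from 506 to 2884 CPM, but in replicate 2 it stood at 2521 CPM in the fourth bin and 2438 CPM in the last. Actn4 had no such order after the first bins: in replicate 1 it stood at 636, 648 and 644 CPM in the last 3 bins, and in replicate 2 at 637, 702 and 574 CPM. The first bin was the deepest, with medians of 17871 and 18302 UMIs, and the others lay between 6979 and 7806 UMIs. These bin levels carry no test, and the score was built from other genes of the same cells.

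**Figure D2:**
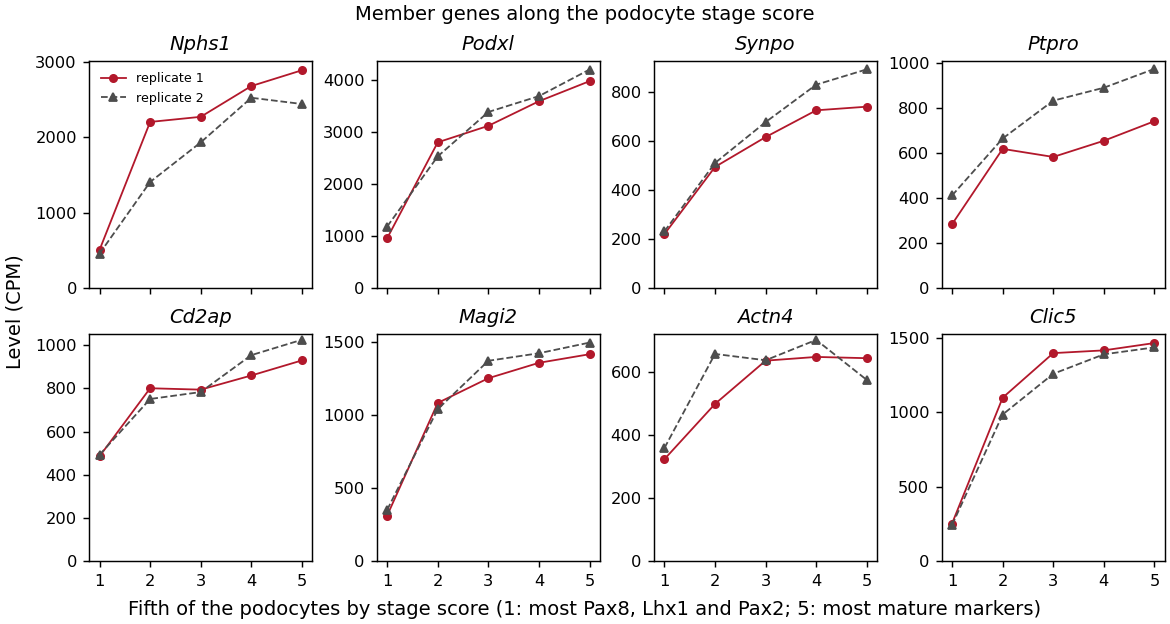
Level in CPM (linear axes from 0) in 5 bins of the podocyte stage score, from the most immature (1) to the most mature (5); red circles with solid lines are replicate 1 and grey triangles with dashed lines replicate 2. The steepest step for the junction and apical genes lies between the first and second bins, as for Clic5 from 252 to 1098 CPM in replicate 1, and Actn4 in replicate 2 falls from 702 CPM in the fourth bin to 574 CPM in the last.

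The share of cells with all 8 genes differed between the stages. After thinning each cell to 5000 UMIs, 281 and 201 mature podocytes remained (42 and 17 were shallower), and 75 and 68 immature podocytes (1 and 2 were shallower). A UMI of all 8 genes was found in 76.2% and 85.6% of the mature podocytes and in 18.7% and 11.8% of the immature podocytes. Without thinning the shares were 86.7% and 90.8% of mature podocytes, and 55.3% and 45.7% of immature podocytes. No early nephron cell (of 516 and 492) held all 8 after thinning, and their median was 1 gene. Erythroid cells, which should lack these genes, had a median of 0 of the 8 genes at median full depths of 4398 and 4514 UMIs. Their 5 erythroid markers summed to 714368 and 730821 CPM, which left few UMIs for other genes. Erythroid shares, here and below, are therefore a low baseline.

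Gene by gene, every thinned mature podocyte carried a UMI of Nphs1 and of Podxl. In immature podocytes the share was 73.3% and 67.6% for Nphs1 and 78.7% and 82.4% for Podxl. Clic5 was found in 98.6% and 99.0% of mature but 46.7% and 39.7% of immature podocytes, and Synpo in 90.7% and 94.5% of mature but 48.0% and 44.1% of immature podocytes. These genes were thus detected in only a part of the immature cells. Synpo averaged 0.773 and 0.691 UMIs per thinned immature cell, a level at which sampling alone leaves some cells without a UMI. Whether levels varied from cell to cell was not tested. In erythroid cells the shares were 1.40% and 1.44% for Nphs1 and 1.40% and 0% for Clic5. The 28 pairs of genes correlated only weakly from cell to cell among thinned mature podocytes, with a median Pearson r of 0.12 over 281 cells of replicate 1 and 0.15 over 201 cells of replicate 2. The highest were Nphs1 with Podxl at 0.28 in replicate 1 and Podxl with Ptpro at 0.37 in replicate 2. Cells of one library share its preparation, and counts this sparse lower any r.

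The second comparison set mature podocytes against the mean of the 11 types outside the lineage. By edgeR's quasi-likelihood test all 8 genes were higher in mature podocytes, where 28.4% of all genes tested were higher, 29.3% lower and 57.7% called in either direction. Ptpro differed by 8.62 ± 0.11 (log2 fold change ± SE), Podxl by 8.17 ± 0.06, Nphs1 by 7.89 ± 0.06 and Synpo by 7.54 ± 0.09. Magi2 differed by 6.79 ± 0.05 and Clic5 by 6.71 ± 0.08. These 6 genes are close to absent from most other types, so their fitted values rest on few UMIs there. Ptpro, for example, had 2 and 0 UMIs in ureteric epithelium. Cd2ap at 2.14 ± 0.06 and Actn4 at 1.93 ± 0.07 differed far less from the other types. The podocyte lineage held 86.3% and 90.6% of all Ptpro UMIs of the kept barcodes, 83.4% and 86.0% of those of Nphs1, but 17.2% and 19.8% of those of Cd2ap and 14.5% and 18.8% of those of Actn4.

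Against early nephron cells, immature podocytes already had higher levels of all 8 genes by edgeR's quasi-likelihood test, where 24.5% of all genes tested were higher, 24.3% lower and 48.9% called in either direction. Ptpro differed by 7.72 ± 0.21, Podxl by 7.15 ± 0.14 and Synpo by 6.19 ± 0.18 (log2 fold change ± SE). Nphs1 differed by 5.27 ± 0.13, Clic5 by 4.59 ± 0.16 and Magi2 by 4.07 ± 0.10. Actn4 differed by 1.48 ± 0.11 and Cd2ap by 1.23 ± 0.09. The early nephron levels of all but Cd2ap and Actn4 were under those of the near-empty barcodes, and the part of free RNA in these log2 values was not tested. The 6 stroma markers summed to 34.3 and 23.0 CPM in early nephron cells and the 6 mural markers to 84.7 and 64.1 CPM, below their sums in immature podocytes (615 and 705 CPM, and 402 and 489 CPM). Their part in this comparison was not tested. This comparison and that of the podocyte stages share the immature podocytes of both libraries.

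**Figure D3:**
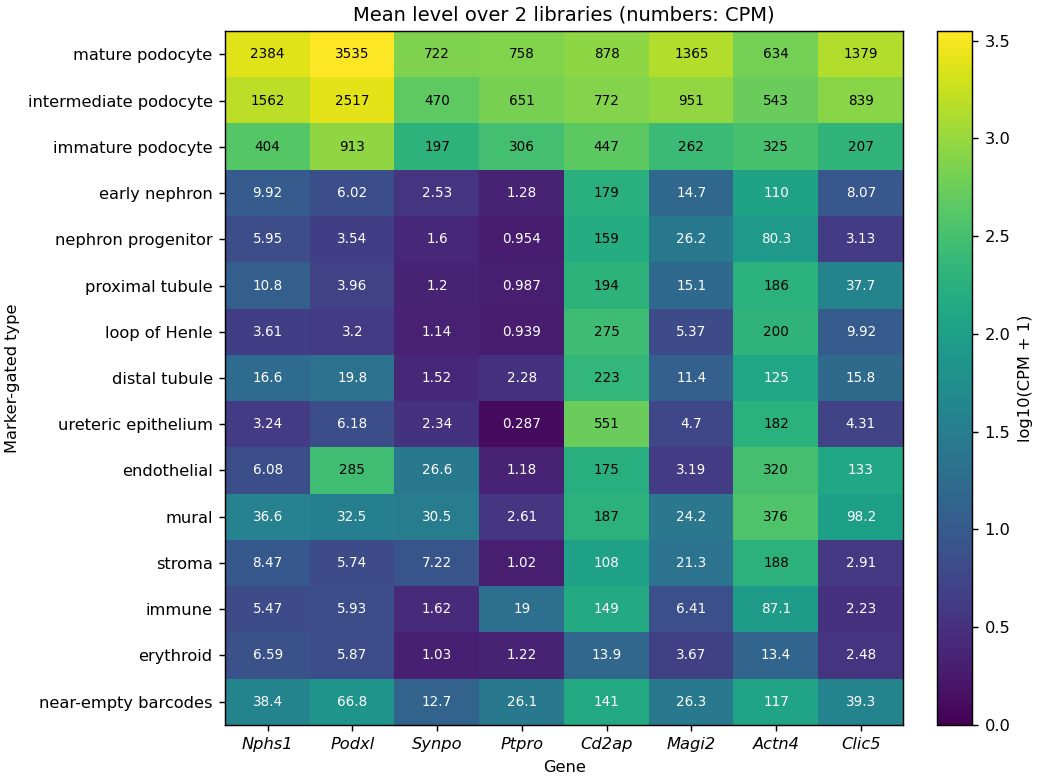
Mean level of each gene over the 2 libraries in 14 marker-gated types and in near-empty barcodes; colour is log10(CPM + 1) and the printed numbers are CPM. The top 3 bands are the podocyte stages. Outside them Podxl and Clic5 stand out in endothelial cells (285 and 133 CPM) and Cd2ap in ureteric epithelium (551 CPM). Actn4 is highest there in the whole mural gate (376 CPM), with endothelial cells next (320 CPM).

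Outside the lineage each gene had its own order of types. For Nphs1 the next level after the podocytes was that of the mural gate, at 36.6 ± 5.40 CPM (mean ± SD, n = 2), and none of the 11 types exceeded the near-empty barcodes in both libraries. Ptpro was next highest in immune cells, at 15.5 and 22.5 CPM. Immune cells gave a Ptpro UMI in 5.85% and 12.2% of 171 and 115 thinned cells, against 0.467% and 0.719% of 214 and 139 erythroid cells, but the CPM was not above that of the near-empty barcodes (19.6 and 32.7 CPM). Magi2 was next highest in nephron progenitors, at 25.3 and 27.0 CPM, which overlapped the mural gate and lay close to the near-empty barcodes (24.9 and 27.8 CPM). Stroma stood at 21.4 and 21.3 CPM, below the progenitors in both libraries. For these 3 genes the next type was thus at or near the level of the near-empty barcodes, and no fold against it is given. The medians over the 11 types were lower, at 6.59 CPM for Nphs1, 1.18 CPM for Ptpro and 11.4 CPM for Magi2. Near-empty barcodes hold free RNA, and its share in the cells was not measured. Whether the levels in the next types are free RNA was not tested.

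Cd2ap had the widest second site. Ureteric epithelium stood at 552 and 550 CPM, above the immature podocytes, and a Cd2ap UMI was found in 87.6% and 86.9% of its 97 and 61 thinned cells. Loop of Henle cells followed at 273 and 277 CPM. From the distal tubule (223 ± 39.3 CPM, SD, n = 2) down to endothelial cells (175 ± 7.12 CPM) neighbouring types in the order overlapped. Cd2ap was lowest in erythroid cells, at 13.9 ± 0.79 CPM, and mature podocytes stood 1.59-fold above ureteric epithelium. Actn4 in the mural gate (360 and 393 CPM), immature podocytes (310 and 340 CPM) and endothelial cells (335 and 306 CPM) lay within a narrow range, and the last 2 overlapped.

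Podocalyxin is also a known protein of the endothelial surface, and endothelial cells were therefore tested against the mean of the other types outside the lineage. Podxl stood at 277 and 293 CPM in endothelial cells, where mature podocytes stood 12.4-fold higher. Clic5 stood at 130 and 135 CPM, and Synpo at 30.2 and 23.0 CPM. By edgeR's quasi-likelihood test 4 genes were higher in endothelial cells, where 31.2% of all genes tested were higher: Podxl by 5.14 ± 0.08, Clic5 by 3.81 ± 0.11, Synpo by 3.24 ± 0.16 and Actn4 by 1.19 ± 0.07 (log2 fold change ± SE). 2 genes were lower, where 24.7% of all genes tested were lower: Magi2 at -1.94 ± 0.16 and Nphs1 at -0.63 ± 0.17 (adjusted p = 0.0029, edgeR). Nphs1 was not called in 3 of 15 alternative settings. Ptpro (-0.38 ± 0.46, adjusted p = 0.54) and Cd2ap (-0.05 ± 0.07, adjusted p = 0.59) were not called by edgeR's test. At a mitochondrial limit of 5% both were called, Ptpro lower at -1.73 (adjusted p = 0.031, edgeR) and Cd2ap higher at 0.32 (adjusted p = 0.0086, edgeR). Endothelial cells were set against fewer types there. Loop of Henle (11 and 11 barcodes), distal tubule (3 and 3) and ureteric epithelium (12 and 8) fell under the minimum of 20 barcodes in each library. Cd2ap had its highest levels outside the lineage in these types.

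Each gene's cells were counted as well. Among thinned endothelial cells 68.3% and 67.4% carried a Podxl UMI and 34.0% and 28.5% a Clic5 UMI, against 2.34% and 1.44% of erythroid cells for Podxl. Nphs1 and Magi2 stayed under the level of the near-empty barcodes in endothelial cells, at 7.53 and 4.63 CPM for Nphs1 and 3.66 and 2.72 CPM for Magi2. Cd2ap stood at 180 and 170 CPM there, above the near-empty barcodes at 151 and 131 CPM.

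Mural cells, which contract around vessels, were set against stroma, and this result rests on how the mural gate is made up. Of its barcodes, 70 in replicate 1 and 50 in replicate 2 carried a UMI of Pax8, Lhx1 or Pax2, epithelial transcription factors of the nephron, and 104 and 36 did not. The carriers also had Wt1 at 279 and 359 CPM and Krt8 at 131 and 101 CPM, with Ren1 at 0 and 1.17 CPM. The others had Ren1 at 201 and 111 CPM and Wt1 at 22.1 and 16.2 CPM. With the gate whole, 6 genes were higher than in stroma by edgeR's quasi-likelihood test, where 11.8% of all genes tested were higher and 22.3% were called in either direction. Clic5 differed by 4.95 ± 0.24, Podxl by 2.36 ± 0.23, Nphs1 by 2.01 ± 0.21, Synpo by 1.90 ± 0.25, Actn4 by 0.90 ± 0.11 and Cd2ap by 0.67 ± 0.11 (log2 fold change ± SE). Ptpro and Magi2 were not called, and the call of Cd2ap was lost with stricter gates (0.29, adjusted p = 0.17, edgeR).

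Without the carriers, a setting chosen after seeing the data, 1 gene was called: Actn4, the alpha-actinin of contractile and foot process actin. Clic5 then differed by 1.81 (adjusted p = 0.14, edgeR), Synpo by 1.10 (adjusted p = 0.17), Podxl by 1.03 (adjusted p = 0.39) and Nphs1 by -0.65 (adjusted p = 0.68). The levels show the same split. The carriers were also deeper, with medians of 15153.5 and 12431.5 UMIs against 10592 and 10056 UMIs in the others. Clic5 stood at 169 and 136 CPM in the carriers and at 4.91 and 27.0 CPM in the other barcodes of the gate, which rest on 6 and 10 UMIs. Nphs1 stood at 71.5 and 42.3 CPM in the carriers and 4.09 and 10.8 CPM in the others. Actn4 stood at 361 and 458 CPM in the carriers and 357 and 243 CPM in the others, beside 335 and 306 CPM in endothelial cells. The carriers were not named as a cell type.

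**Figure D4:**
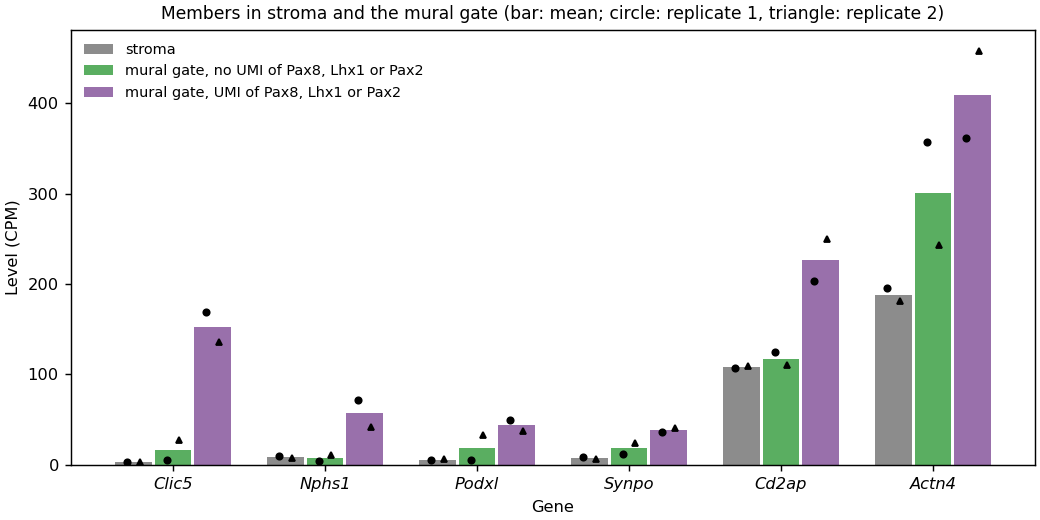
Level in CPM (linear axis from 0) of 6 of the genes in stroma and in the mural gate divided by whether a barcode carried a UMI of Pax8, Lhx1 or Pax2; bars are means of 2 libraries, circles replicate 1 and triangles replicate 2. All 6 genes have their highest mean in the barcodes with such a UMI, and Actn4 stands above stroma in both parts of the gate.

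Other genes of the slit diaphragm and foot process were taken from a list of 64 genes, of which 61 could be tested. The list was chosen with earlier results of these data known, so its shares in each comparison are a description. Between the podocyte stages, edgeR's quasi-likelihood test called 40 higher and 8 lower in mature podocytes and left 13 uncalled. Of the genes tested on the list, 65.6% were higher and 13.1% lower, beside 17.2% higher and 19.4% lower of all 14252 genes, and the median log2 fold change was 0.90 beside -0.04. Myo1e, a membrane-linked motor, differed by 2.51 ± 0.14, Npnt, an integrin ligand of the basement membrane, by 2.45 ± 0.13, and Ddn (dendrin, a cytoplasmic partner of nephrin) by 2.19 ± 0.13. Tjp1, the tight junction protein ZO-1 that sits at the slit diaphragm, differed by 2.13 ± 0.09. The actin regulators Tmod3 and Arhgap24 differed by 1.77 ± 0.09 and 1.74 ± 0.11. The largest fall was in Anln, the cytokinesis protein anillin, at -4.56 ± 0.58, from 25.1 and 28.2 CPM in immature to 0.869 and 1.26 CPM in mature podocytes, the latter on 3 UMIs in each library. Itsn1, an endocytic scaffold, differed by -0.83 ± 0.19. It was not called without barcodes over 50000 UMIs (-0.62 ± 0.24, adjusted p = 0.055, edgeR), with stricter gates (-0.76 ± 0.29, adjusted p = 0.069) or after thinning to 5000 UMIs (-0.72 ± 0.47, adjusted p = 0.32), where the direction was the same and the SE larger.

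Against the types outside the lineage edgeR's test called 46 of the 61 (75.4%) higher and 8 (13.1%) lower in mature podocytes, beside 28.4% higher and 29.3% lower of all genes. The median log2 fold change was 1.44 beside -0.14. Against early nephron cells 45 (73.8%) were higher and 5 (8.20%) lower in immature podocytes, beside 24.5% higher and 24.3% lower of all genes, with medians of 0.96 and -0.02. Ddn led both, at 9.38 ± 0.13 and 7.16 ± 0.24. The polarity protein Crb2 (7.04 ± 0.17), the actin-binding Nebl (7.0 ± 0.09) and Coro2b (5.74 ± 0.10) and the phospholipase Plce1 (5.60 ± 0.13) were among those that followed in the first. Kirrel2, the nephrin-like protein Neph3, was also higher, but it had 0 UMIs in both libraries in 6 of the 11 types. Its fitted value of 8.03 ± 0.47 stood at 5.51 and 4.83 in the libraries alone, so it was given no rank. In the second, Coro2b, Nebl, Robo2, Kirrel2 and the podocalyxin adaptor Slc9a3r2 followed, at between 5.52 and 3.89. Cdh3, P-cadherin, was lower in both, at -4.75 ± 0.87 and -3.45 ± 0.41. Rap1gap was lower in mature podocytes against the other types (-2.43 ± 0.89, adjusted p = 0.021, edgeR). It was not called without barcodes over 50000 UMIs (-1.77, adjusted p = 0.057, edgeR) or with stricter gates (-1.47, adjusted p = 0.41, edgeR). Utrn was lower in immature podocytes against early nephron cells (-1.27 ± 0.12).

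Several members had relatives on the list that went the other way between immature and mature podocytes. The pairing by family was noticed after the values were seen. Clic4 stood at 42.5 and 28.6 CPM in immature and 10.4 and 10.5 CPM in mature podocytes, a log2 fold change of -1.69 ± 0.21, while Clic5 had the largest rise of the 8 genes. Sh3kbp1, the close relative of Cd2ap, stood at 40.9 and 38.8 CPM in immature and 8.40 and 7.54 CPM in mature podocytes, or -2.23 ± 0.22. Actn1, the alpha-actinin next to Actn4 in the family, stood at 152 and 189 CPM in immature and 70.4 and 90.04 CPM in mature podocytes, or -1.02 ± 0.19 (adjusted p = 1.0e-04, edgeR). The scaffold Magi3 stood at 17.0 and 23.1 CPM in immature and 10.7 and 10.9 CPM in mature podocytes, or -0.81 ± 0.24 (adjusted p = 0.0090, edgeR).

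The value for Clic4 rests on few UMIs in mature podocytes (36 and 25). It was not called on cells thinned to 5000 UMIs, at -0.88 (adjusted p = 0.14, edgeR). Earlier in the lineage the relatives differed from each other. Against early nephron cells Sh3kbp1 was higher in immature podocytes by 1.71 ± 0.15 and Actn1 by 1.30 ± 0.17 (edgeR), whereas Clic4 was lower by then at -1.92 ± 0.13. Magi3 was lower too, at -0.55 ± 0.17 (adjusted p = 0.0083, edgeR), but was not called after thinning to 5000 UMIs (-1.04, adjusted p = 0.096, edgeR).

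**Figure D5:**
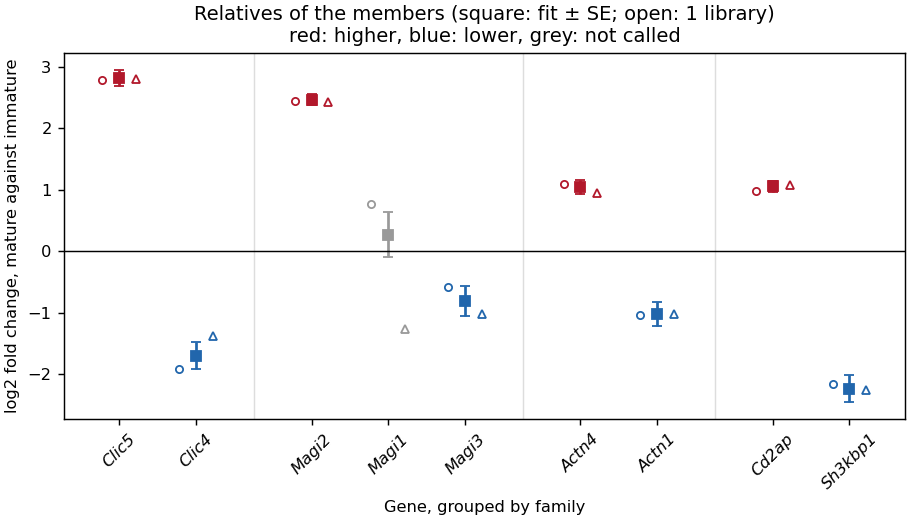
Log2 fold change between mature and immature podocytes for 4 of the 8 genes, each beside relatives from the list; squares with bars are the fit ± SE over both libraries, and open circles and triangles are replicates 1 and 2 alone. In each family 1 gene is higher and 1 is lower in mature podocytes, and Magi1 (grey) has opposite signs in the 2 libraries.

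The genes whose levels were most like each member were sought over the 28 sums of type and library, by Pearson r of log2(CPM + 1) among 10103 genes outside the members. The points share libraries, so r is a description. For the members other than Cd2ap and Actn4 the podocyte sums were the highest and set much of the range. Of the genes most like Nphs1, Gja3 had r = 0.98 and Ddn r = 0.97. Synpo was most like Tspan2 (r = 0.98), a tetraspanin with 290 and 306 CPM in mature podocytes and 34.2 and 38.8 CPM in endothelial cells. Podxl and Clic5 were both most like the gate marker Sema3g (r = 0.96 and 0.91), with Thsd7a and Nebl next for Podxl and Cttnbp2 and Fam65a next for Clic5. Ptpro was most like Tdrd5 and R3hdml (r = 0.96 for each).

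Cd2ap and Actn4 had other neighbours. Cd2ap was most like Trim8, Bri3 and Rrm2b, and Actn4 most like Tax1bp3, Smap1 and Sertad2, all at r = 0.96. Tax1bp3 stood at 155 and 166 CPM in mature podocytes, 134 and 138 CPM in immature podocytes and 131 and 112 CPM in endothelial cells. Among the members themselves, Nphs1 and Magi2 were most alike (r = 0.96), as were Podxl and Synpo (r = 0.95) and Cd2ap and Actn4 (r = 0.86).

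Genome positions bear on 3 of the genes (build GRCm38, RefSeq gene models). Nphs1 lies on chromosome 7 from 30458207 to 30488623, and Kirrel2 lies 691 bases away, from 30447766 to 30457515. Kirrel2 stood at 19.4 and 16.8 CPM in mature and 21.05 and 15.3 CPM in immature podocytes and was not called between them (0.09 ± 0.33, adjusted p = 0.90, edgeR), while Nphs1 was higher in mature podocytes. Magi2 lies on chromosome 5 from 19219387 to 20704792. The long noncoding RNA 4921504A21Rik, from 19202368 to 19226555, overlaps it by 7169 bases and was the gene most like Magi2 of all 10103 (r = 0.98). It stood at 142 and 141 CPM in mature podocytes, 44.9 and 48.6 CPM in immature podocytes and 1.10 and 1.32 CPM in early nephron cells. Whether counting used strand is not given in the sources used here, so reads from the overlap cannot be told apart. Actn4, on chromosome 7 from 28893248 to 28962351, overlaps Capn12, which had 17 UMIs in mature podocytes, and Nphs1 overlaps Nphs1os, which had 10.

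The other 5 genes lie on chromosome 6 (Podxl, 31519493 to 31563937, and Ptpro, 137252299 to 137464634), chromosome 17 (Cd2ap, 42748887 to 42876707, and Clic5, 44134762 to 44280169) and chromosome 18 (Synpo). No counted gene overlapped these 5.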

How the data were processed

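RNA of single cells was measured in 2 libraries of mutant P0 mouse kidney, which formed 1 group. Replicate numbers follow accession order. The authors deposited raw counts of UMIs per gene and barcode in unfiltered matrices, with 163405630 and 135436576 UMIs in all. Per the file headers the matrices were written by Cell Ranger 4. The submitters' processing notes name Cell Ranger 6.0.1 and the build mm10.

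Barcodes with at least 2000 UMIs (6910 and 5917) were kept if at most 10% of their UMIs were mitochondrial, which removed 690 and 768. Counts were scaled to 10000 UMIs per barcode and log-transformed, and each type was scored by the mean standardised level of its markers. A barcode took the best type if its score was over 0.3, its lead over the next was over 0.3 and at least 2 markers were detected. Barcodes with a second type above 1 (464 and 391) were left out as possible doublets, and 998 and 756 took no type. In place of a doublet caller in the main setting, Scrublet (scanpy 1.11.5) was an alternative that removed 310 and 212 barcodes. Its automatic threshold marked 1.01% and 0.427%. Podocytes with a stage score above 0 were called mature and below -1 immature. Olfm3, a planned immature marker, had 0 UMIs in podocytes. These score limits were set after gate scores and gene levels had been seen. The members, markers and lists were chosen with earlier results of these data known.

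Counts were summed per library and type and tested with edgeR 4.0.16 (with limma 3.58.1, under R 4.3.3). One quasi-likelihood fit with a library block covered all types, after filterByExpr and TMM scaling. The block was used because types of 1 library come from 1 cell suspension. It used 28 sums and 14252 genes, which left 13 residual degrees of freedom, and its common dispersion was 0.00411. Benjamini-Hochberg adjustment ran over all 14252 genes, at a threshold of 0.05. On simulated counts for mature against immature podocytes (14202 genes tested), the test recovered 86.6% of 97 genes changed by 1 and 99.0% of 103 changed by 2 on the log2 scale, with 8 calls among 14002 unchanged genes.

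CPM are relative to all UMIs of a type in a library. Intervals are exact Poisson (CPM) at 95% and cover counting error only. Named besides the members are, per comparison, up to 6 genes of the list with the largest rise and fall that both libraries share, the 3 genes most like each member (with a maximum of at least 20 CPM), and relatives and neighbours chosen after their values were seen. Some genes that this rule names are not reported here. Alternatives covered depth, mitochondrial limit, gates, thinning, doublets, filter, scaling, DESeq2 1.42.0, the block and single libraries. Analysis used Python 3.11.15, numpy 2.4.6, scipy 1.17.1 and pandas 2.3.3.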

Additional observations from a re-analysis of the deposited data

How the results depend on the processing

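Of the 15 alternative settings, 3 were chosen after seeing the data: podocytes divided at a score of 0, no erythroid cells, and no mural barcodes with Pax8, Lhx1 or Pax2. All 8 genes were called higher under each of them in mature against immature podocytes, in mature podocytes against other types and in immature podocytes against early nephron cells. Without the library block (no replicate block) the calls numbered 8, 8 and 8 there, 6 in endothelial cells and 6 in mural cells, as with it. A single library leaves 1 sum per type and no test. The fold changes of each library alone had the sign of the joint fit for all 8 genes in those 3 comparisons.

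The number of genes called in endothelial cells ranged from 5 to 8. In mural cells it fell from 6 to 1 when barcodes with Pax8, Lhx1 or Pax2 were left out, with Nphs1 at -0.65 and Magi2 at -0.30 (not called in the main setting either). Signs turned in 4 other results: Cd2ap in endothelial cells at a mitochondrial limit of 5% (0.32, adjusted p = 0.0086, edgeR), Ptpro in endothelial cells without barcodes over 50000 UMIs (0.16), and Magi2 in mural cells with stricter gates (-0.24) and after thinning (-0.028). For Cd2ap and Ptpro the set of types compared was smaller in these settings. At the 5% limit loop of Henle, distal tubule and ureteric epithelium had too few barcodes to be fitted. Without barcodes over 50000 UMIs this held for the distal tubule (21 and 8 barcodes). The cause of the turned signs was not tested. Between podocyte stages the log2 fold change of Ptpro ranged from 0.81 to 1.74 and that of Clic5 from 1.89 to 3.12. Ptpro rests on few UMIs outside podocytes (2 and 0 in ureteric epithelium), as does Synpo (4 and 0 in distal tubule), and intervals cover counting error only.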

Other observations

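The barcodes that took no type or 2 types still held some of the members' UMIs. Podxl stood at 106 and 102 CPM and Nphs1 at 54.3 and 55.1 CPM in barcodes with 2 types, and Podxl at 38.3 and 27.8 CPM in barcodes with no type. Cd2ap stood at 246 and 249 CPM in barcodes with 2 types and at 181 and 183 CPM in those with none.

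Magi1, the relative of Magi2, differed between the libraries within mature podocytes. Replicate 1 had 147 UMIs (42.6 CPM) spread over 95 of 323 barcodes, with at most 7 in a barcode, and replicate 2 had 19 UMIs (7.96 CPM) in 16 of 218 barcodes. In immature podocytes the libraries were closer, at 26.3 and 20.4 CPM, and in early nephron cells at 31.7 and 32.5 CPM. With 1 sum per library and stage this difference was not tested. Magi2 itself stood at 1323 and 1408 CPM in the same mature podocytes.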
